A study of Mus musculus with 9 samples.

Results

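Translation initiation and elongation factors were taken as the protein-coding genes whose symbol begins with Eif and a digit from 1 to 6, leaving out the eIF2 kinases, or with Eef1 or Eef2. This gave 64 of the 27370 genes in the table, and 61 of them had enough counts to be tested. They were chosen by name, so the rule also took in binding proteins, 1 kinase and the methyltransferases that act on these factors. The expression data are poly(A) RNA sequencing of sorted mouse stromal cells in 9 libraries, 3 in each of 3 groups. The first group, depleted RPF, holds red pulp fibroblasts from the spleens of 6 mice treated with diphtheria toxin. The second, steady RPF, holds the same cell type from 6 untreated mice. The third, steady FRC, holds fibroblastic reticular cells from 78 lymph nodes of 6 untreated mice. Every mouse was 4 months old and carried the same 3 alleles, Wt1CreERT2, RosatdTomato and CD64DTR, so the untreated animals also carry the toxin receptor. Each library pools 2 mice and 45000 cells were isolated per group, so the error below is the spread between pools. Red pulp fibroblasts were sorted as tdTomato-positive and FRC as tdTomato-negative cells after CD45-positive cells had been removed on a column, with staining for CD45, gp38, CD31 and VCAM1.

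Protein synthesis starts when the small ribosomal subunit, carrying the initiator tRNA with eIF2 and GTP and held by eIF3, is brought to the capped end of an mRNA by the eIF4F complex and scans to the start codon. The elongation factors then deliver each aminoacyl-tRNA (eEF1A) and move the ribosome along (eEF2), while eIF5A, which carries the unusual amino acid hypusine, helps peptide bonds form at difficult sequences. Diphtheria toxin kills cells by inactivating eEF2 at its diphthamide residue. Mouse cells bind the toxin poorly unless they carry a transgenic receptor, here placed under the control of CD64, a gene of macrophages and monocytes. No group of toxin-treated mice without the receptor was analysed here, so the loss of macrophages and the treatment itself cannot be told apart. In bulk samples, fewer cells of a type and less RNA per cell cannot be told apart either.

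Total counts per library ran from 25414645 in steady RPF replicate 3 to 43879806 in FRC replicate 3, and the correlation of log2 CPM across genes between replicates of a group ran from 0.959 to 0.980. The libraries of RPF and FRC matched their labels in Tlx1, Tcf21, Nkx2-5 and Wt1, which were high in RPF and near 0 in FRC, while Pdpn, the gene of gp38, was at most 0.236 CPM (counts scaled to the library total, here without TMM factors) in RPF and at least 55.7 in FRC. Within RPF, Tlx1, Tcf21, Nkx2-5 and Wt1 were lower in depleted than in steady libraries. Tlx1 had 209 to 264 against 436 to 516 CPM, and Tcf21 189 to 287 against 786 to 967. Nkx2-5 had 30.5 to 36.4 against 37.0 to 58.7 CPM, and Wt1 28.8 to 41.4 against 71.2 to 76.3. The fibroblast marker Col1a2 was lower too, at 738 to 983 against 2091 to 2291 CPM, while Pdgfrb was higher, at 2369 to 2545 against 1089.5 to 1142. Markers of other cells differed between the groups. The 8 red pulp macrophage markers summed to 0.0716 to 4.31 CPM in depleted RPF, with 4 of the 8 at 0 in all 3 libraries, against 151 to 171 in steady RPF and 23.0 to 36.7 in FRC. The 6 neutrophil markers summed to 2.53 to 49.4 in depleted RPF, 54.3 to 405 in steady RPF and 0.0542 to 5.42 in FRC. The 6 B cell markers summed to 20.3 to 45 in depleted RPF, 122 to 273 in steady RPF and 58.1 to 139 in FRC. The 5 endothelial markers, mostly Plvap, summed to 238 to 429 in depleted RPF, 456 to 490 in steady RPF and 39.7 to 66.5 in FRC. The 7 erythroid markers summed to 422 to 657 in depleted RPF, 198 to 867 in steady RPF and 0.387 to 78.8 in FRC, and the 4 T cell markers to 0.0239 to 1.15, 0 to 4.23 and 8.52 to 15.5 in the same groups. The part of these marker differences, and of those within RPF, in the results below was not tested. Steady RPF replicate 1 and FRC replicate 1 had 24 and 69 counts on Y-linked genes, against 2315 to 6124 in the other libraries. On Xist they had 8903 and 7067 counts, against 0 to 138 in the other libraries. The labels do not give the sex of the mice, and no depleted library showed this pattern.

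After depletion, translation factor mRNA made up a larger share of the RNA of red pulp fibroblasts, and genes of 9 of the 11 functional roles were called higher. The 64 genes took 1.41, 1.29 and 1.39% of all counts in the 3 depleted libraries, against 0.710, 0.702 and 0.685% in the 3 steady RPF libraries and 0.632, 0.687 and 0.637% in the 3 FRC libraries. The depleted libraries lay apart from all others, and the mean share was 1.95 times that of steady RPF. Without the 4 genes Eif5a, Eef2, Eef1a1 and Eif4g2 the ratio was 1.78. The 82 cytosolic ribosomal protein genes took 0.510 to 0.575% of counts in depleted RPF, 0.192 to 0.223% in steady RPF and 0.255 to 0.293% in FRC.

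In the edgeR quasi-likelihood test, with calls at an adjusted p under 0.05 (Benjamini-Hochberg, over all 15103 genes), 35 of the 61 tested factors were higher in depleted than in steady RPF and 3 were lower. Over all genes tested, 11.1% were called higher and 9.96% lower. Among protein-coding genes with a mean of at least 10 CPM (here and below scaled with TMM factors), where 55 of the factors lay and 34 of them were called higher, 18.3% were called higher and 13.8% lower. The median log2 fold change of the tested factors was 0.94, and that of all genes was -0.09. In 45 factors the lowest depleted library lay above the highest steady RPF library, and in 4 the order was the reverse, against 21.4% and 23.0% of all genes.

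**Figure D1:**
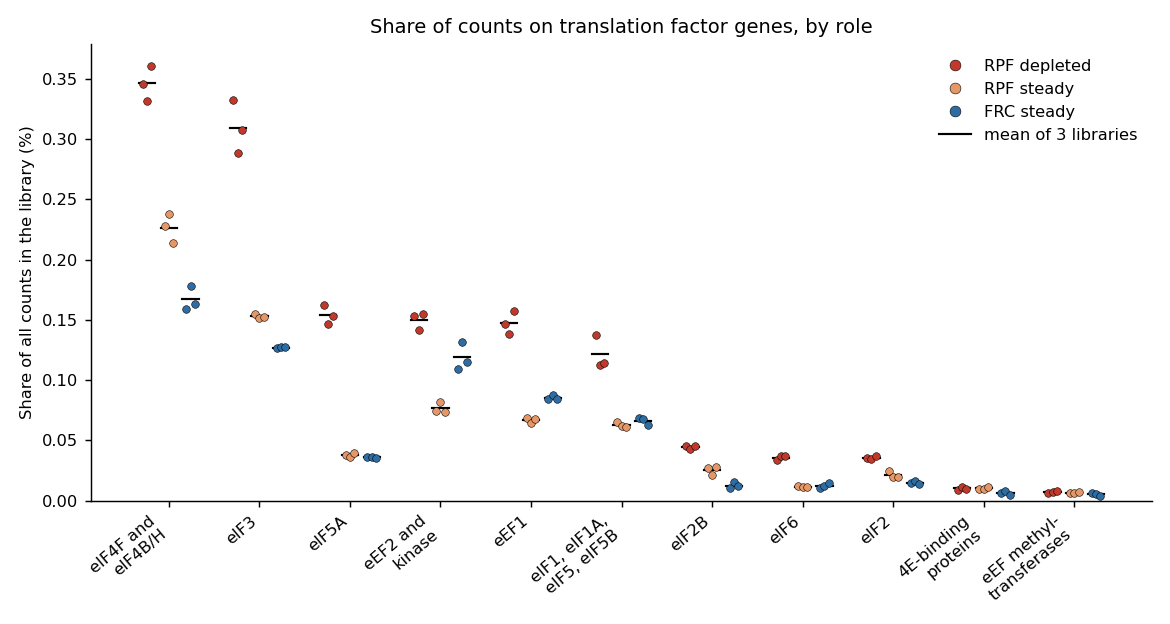
Share of all counts in each library, in percent, that fell on the factor genes of each functional role, with 1 point per library, a bar at the mean of the 3 libraries, and groups in the order depleted RPF, steady RPF, FRC. The eIF5A genes took 0.154% of counts in depleted RPF and 0.0380% in steady RPF on average, while the 4E-binding proteins and the methyltransferases stood at similar shares in both.

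The promoters of 6 factors are shown: those of Eif5a and Eef1b2, which had the smallest p among factors with a promoter in the table, and those of the pairs Eif4a1 and Eif4a2, and Eif4g1 and Eif4g3, in which 1 gene rose and its relative fell. Sequences are those of RefSeq on GRCm38.p6, 250 bases before to 50 bases after a transcript start, read 5′ to 3′ on the gene's strand, at the most upstream start where several are listed. They lie at chr11:69921909-69922208 (minus strand, Eif5a), chr1:63176581-63176880 (plus, Eef1b2), chr11:69672374-69672673 (minus, Eif4a1), chr16:23107218-23107517 (plus, Eif4a2), chr16:20672477-20672776 (plus, Eif4g1) and chr4:137993205-137993504 (plus, Eif4g3). Capitals mark CACGTG, the E-box that proteins of the Myc and Mxd families among others can bind; it reads the same on both strands.
Eif5a: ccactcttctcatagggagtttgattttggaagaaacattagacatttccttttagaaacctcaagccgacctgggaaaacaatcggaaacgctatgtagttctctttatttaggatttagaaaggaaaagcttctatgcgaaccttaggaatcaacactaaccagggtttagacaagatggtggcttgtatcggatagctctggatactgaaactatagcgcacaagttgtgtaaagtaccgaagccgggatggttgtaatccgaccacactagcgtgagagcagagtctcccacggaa
Eef1b2: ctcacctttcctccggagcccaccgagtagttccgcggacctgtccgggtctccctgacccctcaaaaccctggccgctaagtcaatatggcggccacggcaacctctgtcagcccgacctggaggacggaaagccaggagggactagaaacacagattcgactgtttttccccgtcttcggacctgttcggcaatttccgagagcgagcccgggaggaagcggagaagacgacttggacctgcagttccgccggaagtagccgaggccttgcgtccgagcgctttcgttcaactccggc
Eif4a1: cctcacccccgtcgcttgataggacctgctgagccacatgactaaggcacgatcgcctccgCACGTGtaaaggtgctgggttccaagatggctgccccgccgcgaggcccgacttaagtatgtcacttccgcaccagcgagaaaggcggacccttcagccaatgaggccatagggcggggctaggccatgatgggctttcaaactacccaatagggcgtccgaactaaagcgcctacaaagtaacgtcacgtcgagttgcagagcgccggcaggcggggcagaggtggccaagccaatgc
Eif4a2: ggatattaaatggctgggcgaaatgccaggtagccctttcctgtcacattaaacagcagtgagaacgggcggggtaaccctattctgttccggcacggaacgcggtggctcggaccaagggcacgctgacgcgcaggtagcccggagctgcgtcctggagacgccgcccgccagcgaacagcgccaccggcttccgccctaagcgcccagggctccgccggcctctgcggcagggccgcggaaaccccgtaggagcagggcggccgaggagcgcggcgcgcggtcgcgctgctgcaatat
Eif4g1: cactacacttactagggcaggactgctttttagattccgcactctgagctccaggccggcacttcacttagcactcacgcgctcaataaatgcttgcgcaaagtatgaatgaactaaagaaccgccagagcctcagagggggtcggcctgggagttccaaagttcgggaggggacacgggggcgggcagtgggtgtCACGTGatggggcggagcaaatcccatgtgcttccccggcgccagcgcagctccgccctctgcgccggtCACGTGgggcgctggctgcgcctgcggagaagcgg
Eif4g3: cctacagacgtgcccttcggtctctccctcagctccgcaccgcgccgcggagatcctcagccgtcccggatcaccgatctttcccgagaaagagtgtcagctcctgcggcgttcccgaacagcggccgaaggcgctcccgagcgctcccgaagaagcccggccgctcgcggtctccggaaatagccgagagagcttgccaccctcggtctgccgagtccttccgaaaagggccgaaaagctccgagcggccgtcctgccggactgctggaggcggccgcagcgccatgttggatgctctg
The E-box stands 189 bases before the start in the Eif4a1 window. Eif4g1 has 2, the first 54 bases before the start and the second in the transcribed part. These letters were not found in the windows shown for Eif5a, Eef1b2, Eif4a2 and Eif4g3. For Eif5a, 6 starts are listed and 3 of the other windows hold the E-box.

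Promoters were matched for 48 of the 64 factors, with 62 windows. The E-box stood in at least 1 window of 13 of the 48 genes (27.1%), against 8.09% of all 27025 genes with a promoter in the table, or in 24.2% of the factors' windows against 7.15% of all windows. Windows were not matched for base composition or for the number of starts per gene. Among the 48, the E-box stood in 8 of the 26 factors called higher after depletion (30.8%), in 0 of the 3 called lower and in 5 of the 18 not called (27.8%); the remaining gene was not tested. The share was thus close in factors that rose and in factors that were not called. TGATGCAA, a composite site for ATF4 and C/EBP proteins searched on both strands, was in no window of the 48 genes and in 1.03% of all genes.

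**Figure D2:**
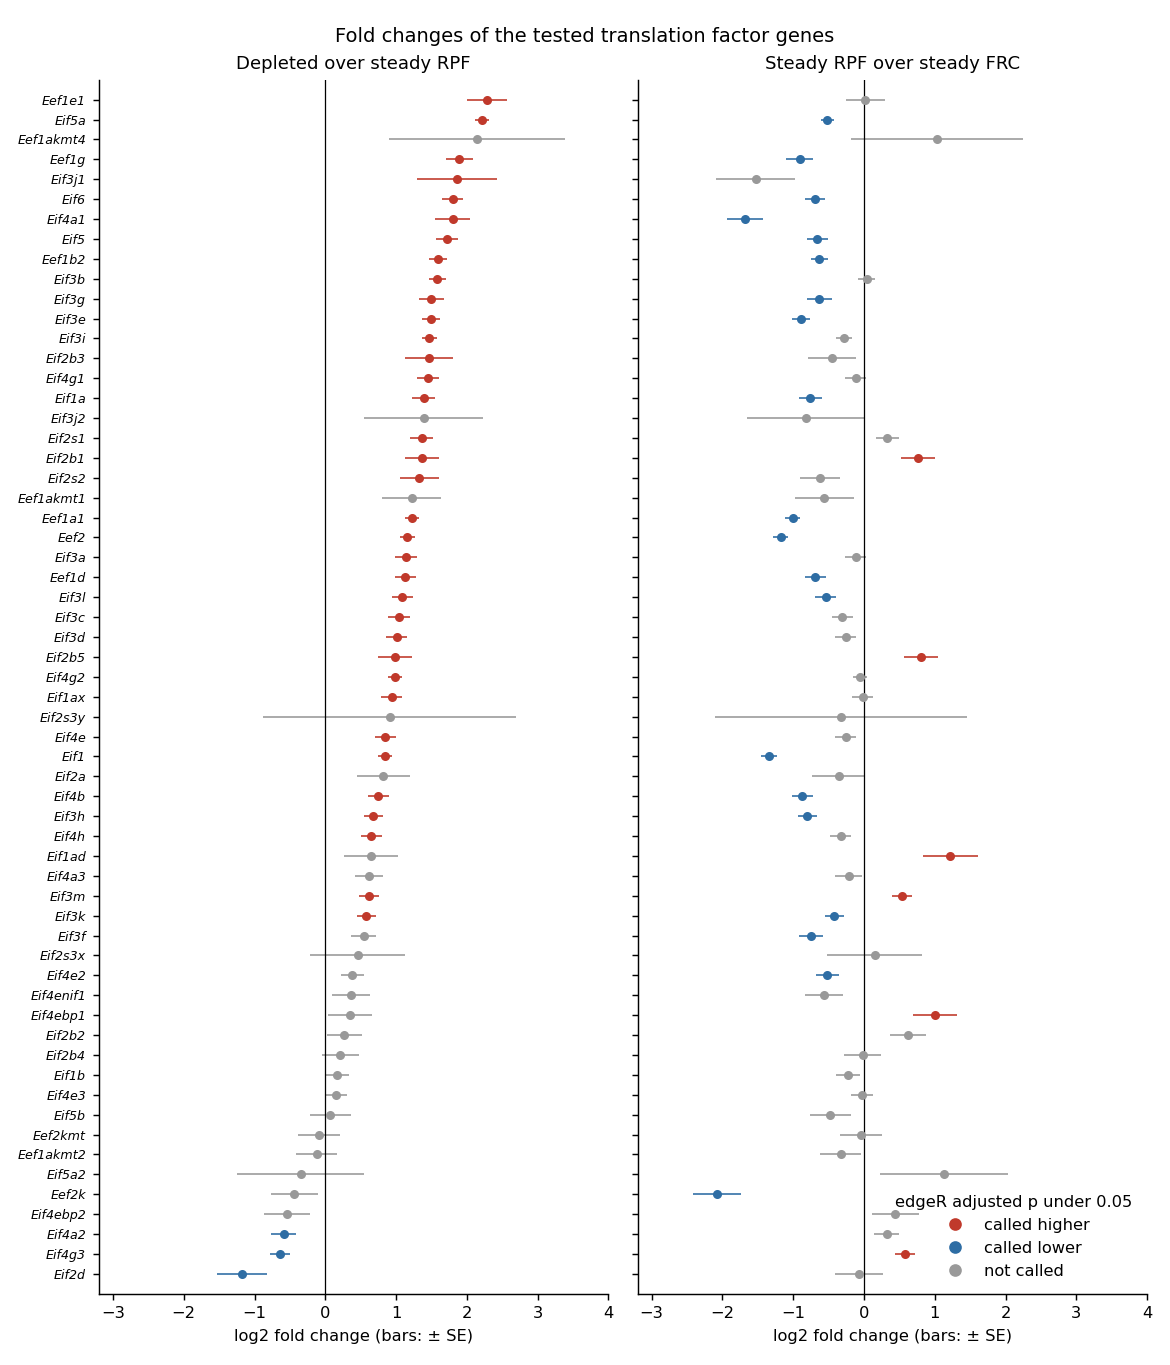
Log2 fold changes of 60 of the 61 tested factors in depleted over steady RPF (left) and steady RPF over FRC (right), as points with bars of ± 1 SE, coloured by the edgeR call at an adjusted p under 0.05; Eef1akmt3, at -4.51 and -4.01 with under 3 CPM in every library, lies off the axis. On the left 35 points are called higher and 3 lower; on the right 6 are called higher and 20 lower, a split that becomes 16 and 5 when libraries are scaled by their totals alone.

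The eIF4F complex binds the mRNA cap and unwinds the leader, through the cap-binding protein eIF4E, the helicase eIF4A and the scaffold eIF4G. Of the 11 tested genes grouped with it here, which include eIF4B, eIF4H and relatives of its subunits, 6 rose after depletion and 2 fell. The change split along pairs of related genes. Eif4a1, the main helicase of dividing cells, had 49.6, 44.6 and 43.2 CPM in the depleted libraries, against 15.0, 11.6 and 12.8 CPM in steady RPF. Its relative Eif4a2 had 59.5, 43.4 and 64.8 CPM in depleted RPF and 85.6, 86.8 and 80.5 CPM in steady RPF. The libraries of the groups did not overlap for either gene, and the genes moved in opposite directions: Eif4a1 rose with a log2 fold change of 1.80 (SE 0.25, edgeR adjusted p = 0.00111), and Eif4a2 fell by 0.59 (SE 0.18, edgeR adjusted p = 0.0442). The call of Eif4a2 was lost without any 1 of depleted replicates 1 and 2, steady RPF replicates 1, 2 and 3 or FRC replicate 1, at edgeR adjusted p from 0.0607 to 0.135. Eif4a3, a helicase of the exon junction complex and not of eIF4F, had 173, 167 and 168 CPM against 106, 102 and 122 CPM and was not called (edgeR adjusted p = 0.0518). It was called higher under 6 of the 20 alternatives, DESeq2 and limma-voom among them.

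The scaffold genes divided in the same manner. Eif4g1 had 291, 226 and 308 CPM in depleted RPF, against 113, 92.4 and 97.0 CPM in steady RPF, and rose with a log2 fold change of 1.45 (SE 0.15, edgeR adjusted p = 0.000286). Eif4g3 had 113, 94.1 and 98.8 CPM in depleted RPF, against 149, 177 and 149 CPM in steady RPF, and fell by 0.64 (SE 0.14, edgeR adjusted p = 0.0126). All 3 depleted libraries lay below the steady ones for Eif4g3, but its call was lost without depleted replicate 2 (adjusted p = 0.0539) or steady RPF replicate 2 (adjusted p = 0.0559). Eif4g2, a scaffold without the cap-binding site that serves cap-independent initiation, had the most counts of all factors in RPF, 1823, 1845 and 1921 CPM in depleted RPF and 976, 1014 and 825 CPM in steady RPF, and rose by 0.99 (edgeR adjusted p = 0.000268). The cap-binding protein gene Eif4e had 82.5, 84.6 and 78.6 CPM against 49.0, 48.0 and 39.6 CPM and rose by 0.85 (edgeR adjusted p = 0.00379). Eif4b and Eif4h, which stimulate the helicase, rose by 0.75 and 0.65 (edgeR adjusted p = 0.00732 and 0.0164), and the Eif4h call was lost without depleted replicate 1 or steady RPF replicate 1 or 2 (adjusted p from 0.0543 to 0.0655). The eIF4E relatives were not called: Eif4e2, which competes for the cap, averaged 83.3 ± 2.09 CPM in depleted and 63.8 ± 2.89 CPM in steady RPF (SD, n = 3 each), and Eif4e3 averaged 63.9 ± 10.1 and 57.7 ± 5.13 CPM.

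The balance of 2 related genes can also be read within each library, as a ratio of their counts that no scaling factor touches. It shows a relative shift and not whether either gene rose or fell. Such a ratio compares counts, not transcripts per length. There were 0.834, 1.03 and 0.666 counts of Eif4a1 per count of Eif4a2 in the depleted libraries, 0.175, 0.134 and 0.159 in steady RPF and 0.464, 0.938 and 0.512 in FRC. The mean ratio in depleted RPF was 5.41 times that in steady RPF, and its range reached into that of FRC. There were 2.58, 2.40 and 3.12 counts of Eif4g1 per count of Eif4g3 in depleted RPF, 0.759, 0.521 and 0.652 in steady RPF and 1.18, 0.983 and 0.968 in FRC, so the depleted libraries stood above both other groups. Ratios of Eif1 to Eif1b, Eif1a to Eif1ax, Eif4e to Eif4e2, Eif4e to Eif4e3 and Eif4g1 to Eif4g2 also had every depleted library above every steady RPF library, with mean ratios 1.59, 1.36, 1.37, 1.65 and 1.36 times as high. Eif1a and Eif1ax were both called higher after depletion, as were Eif4g1 and Eif4g2. The pairs are not separate, since Eif4e and Eif4g1 each stand in 2 of them. How often ratios of other gene pairs fail to overlap was not counted. The ratios of Eif3j1 to Eif3j2, Eif4ebp1 to Eif4ebp2 and Eif5a to Eif5a2 overlapped between depleted and steady RPF. The 2 remaining of the 12 pairs gave no ratio, because Eef1a2 had 0 counts and Eif2s3y had 0 counts in 2 libraries.

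**Figure D3:**
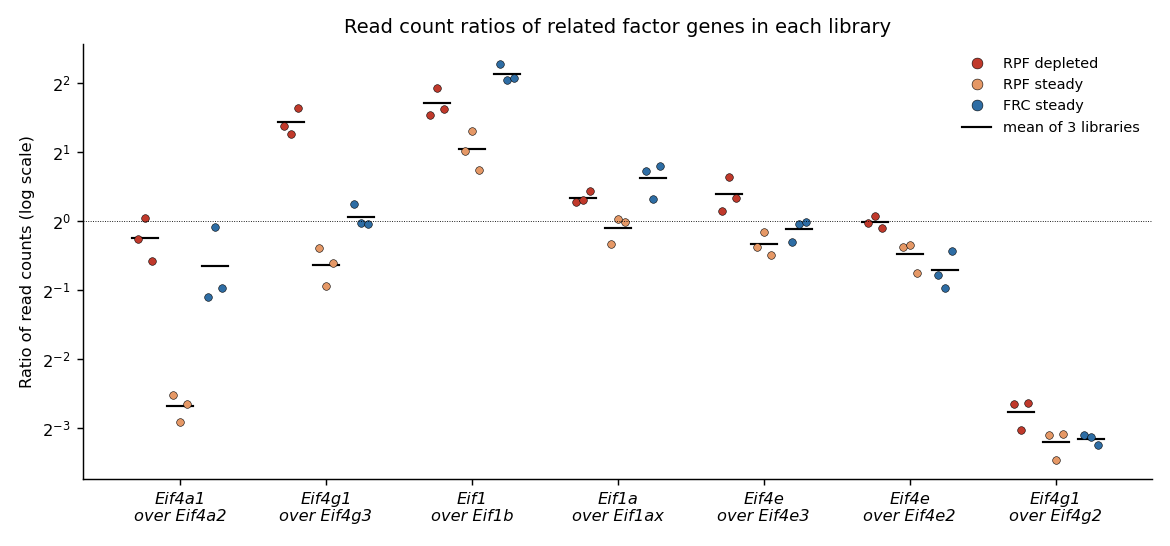
Ratio of read counts of 2 related factor genes in each library, on a log scale, for the 7 pairs in which depleted and steady RPF did not overlap; points are libraries, bars are means of 3, and the dotted line marks equal counts. Eif4a1 over Eif4a2 stands at 0.666 to 1.03 in depleted RPF and at 0.134 to 0.175 in steady RPF.

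The largest complex, eIF3, holds the small subunit open for the mRNA and bridges it to eIF4G. All 14 of its genes had depleted libraries above steady RPF libraries with no overlap, and 12 of the 14 were called higher, with log2 fold changes from 0.54 to 1.86 and a median of 1.12. Eif3b, whose protein forms the scaffold near the mRNA entry side, had 801, 674 and 675 CPM in depleted RPF, against 245, 216 and 260.1 CPM in steady RPF (log2 fold change 1.58, SE 0.12, edgeR adjusted p = 7.55e-05). Eif3a, the other central scaffold subunit, had 588, 418 and 515 CPM in depleted RPF, against 241, 220.3 and 227 CPM in steady RPF (log2 fold change 1.14, edgeR adjusted p = 0.000781). Eif3i, a ring-shaped subunit bound to eIF3b, had 225, 218 and 239 CPM against 84.0, 78.5 and 83.5 CPM and the smallest p of the complex (log2 fold change 1.47, edgeR adjusted p = 5.68e-05). The rise was 2.98-fold for Eif3b and 2.21-fold for Eif3a, with every depleted library above every steady one. Eif3g and Eif3e rose by 1.5 and 1.49 on the log2 scale, Eif3l, Eif3c and Eif3d by 1.09, 1.04 and 1.01, and Eif3h, Eif3m and Eif3k by 0.68, 0.62 and 0.58, with edgeR adjusted p from 0.000116 for Eif3e to 0.012 for Eif3m. Eif3m lost its call without steady RPF replicate 3 (adjusted p = 0.0528). Eif3f had 76.9, 75.8 and 79.1 CPM in depleted RPF and 49.1, 63.6 and 47.1 CPM in steady RPF and was not called (log2 fold change 0.54, edgeR adjusted p = 0.0575). The eIF3j subunit has 2 near-identical genes in the mouse, with 54.8% of the 50-base words of Eif3j1 and 91.8% of those of Eif3j2 found in another gene. Eif3j1 had 8.87, 7.29 and 6.45 CPM against 1.45, 2.05 and 2.71 CPM (edgeR adjusted p = 0.0469), a call lost without any 1 of the 6 RPF libraries or FRC replicate 1 (adjusted p from 0.0601 to 0.144), and Eif3j2 was not called (edgeR adjusted p = 0.298).

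The trimeric factor eIF2 brings the initiator tRNA, and eIF2B reloads it with GTP. Eif2s1, the alpha subunit that stress kinases phosphorylate, had 187, 173 and 193 CPM in depleted RPF, against 79.7, 79.4 and 56.4 CPM in steady RPF (log2 fold change 1.36, SE 0.16, edgeR adjusted p = 0.000521). Eif2s2, the beta subunit, had 79.0, 60.6 and 57.5 CPM against 28.6, 24.2 and 25.5 CPM (log2 fold change 1.33, edgeR adjusted p = 0.00996). The gamma subunit has an X-linked and a Y-linked gene, and neither was called: Eif2s3x had 3.76, 3.13 and 3.53 CPM against 3.38, 1.68 and 2.51 CPM, and Eif2s3y had 23.7, 23.7 and 19.9 CPM against 0, 18.5 and 17.5 CPM, with 0 in the steady library that has few Y-linked reads. Of the exchange factor's 5 genes 3 rose, those of the alpha, gamma and epsilon subunits. Eif2b1 had 93.5, 121 and 112 CPM in depleted RPF and 47.6, 39.8 and 39.6 CPM in steady RPF (log2 fold change 1.36, edgeR adjusted p = 0.00426). Eif2b5, the catalytic subunit, had 184, 150.1 and 175 CPM against 88.6, 58.8 and 109 CPM (log2 fold change 0.99, edgeR adjusted p = 0.02), and Eif2b3 had 68.8, 65.6 and 68.1 CPM against 28.3, 23.1 and 22.5 CPM (log2 fold change 1.46, edgeR adjusted p = 0.0158). Eif2b5 lost its call without depleted replicate 1 or 3 or steady RPF replicate 1 or 2 (adjusted p from 0.0552 to 0.0666), and Eif2b3 lost it without steady RPF replicate 2 or 3 (adjusted p = 0.0629 and 0.0628). Eif2b2 and Eif2b4 were not called, with log2 fold changes of 0.27 and 0.21. Eif2a and Eif2d share the name without being subunits of eIF2; both can deliver tRNA to the ribosome on particular mRNAs. Eif2d had 13.8, 24.02 and 15.7 CPM in depleted RPF and 57.2, 23.7 and 40.6 CPM in steady RPF, overlapping ranges with a log2 fold change of -1.18 (SE 0.35, edgeR adjusted p = 0.0402). That call was lost without any 1 of 7 libraries, namely depleted replicates 1 and 3, steady RPF replicates 1 and 3 and each FRC library (adjusted p from 0.0515 to 0.144). Eif2a had 33.4, 44.8 and 53.9 CPM against 38.8, 15.4 and 20.7 CPM and was not called.

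Start codon choice rests on eIF1, eIF1A and eIF5, and 4 of the 7 genes in this group rose. Eif5, which triggers GTP hydrolysis by eIF2 at the start codon, had 499.7, 396 and 376 CPM in depleted RPF, against 149, 121 and 115 CPM in steady RPF (log2 fold change 1.72, SE 0.16, edgeR adjusted p = 0.000126). Eif1, which keeps the scanning complex open, had 202, 209 and 198 CPM in depleted RPF, against 111, 124 and 106 CPM in steady RPF (log2 fold change 0.84, SE 0.10, edgeR adjusted p = 0.000617). The eIF1A genes Eif1a and Eif1ax rose by 1.39 and 0.94 (edgeR adjusted p = 0.000427 and 0.00253). The libraries of the groups did not overlap for any of these 4 genes. Eif1b, Eif1ad and Eif5b, the last of which joins the ribosomal subunits, were not called, with log2 fold changes of 0.17, 0.64 and 0.07 (edgeR adjusted p = 0.554, 0.288 and 0.914).

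Eif5a (ENSMUSG00000078812, chromosome 11, 69916714 to 69921958, build mm10) had the smallest p of all factors. It had 1532, 1390.5 and 1432 CPM in the depleted libraries, against 318, 291 and 331 CPM in steady RPF. Each depleted library held more than 4 times the level of any steady one, and the fit gave a 4.63-fold rise (log2 fold change 2.21, SE 0.10, edgeR adjusted p = 8.47e-06). Per kilobase of coding transcript its mean level was 1010.2 CPM in depleted RPF and 218 CPM in steady RPF. On this scale it stood first among the 64 factors in depleted RPF, ahead of Eef1a1 at 550.5 and Eef2 at 454 CPM. In steady RPF it stood second, behind Eef1a1 at 236 CPM and next to Eef2 at 203 CPM. This order takes the longest coding transcript as the length. It is also limited by shared sequence, as 60.6% of the 50-base words of Eef1a1 lie in another gene, against 7.1% for Eif5a. The related gene Eif5a2, with 10.9, 2.13 and 2.97 CPM in depleted and 4.87, 14.0 and 1.46 CPM in steady RPF, was not called. The anti-association factor gene Eif6, whose protein keeps free large subunits from joining small ones, had 323, 350.4 and 344 CPM in depleted RPF, against 105, 94.1 and 94.2 CPM in steady RPF (log2 fold change 1.80, SE 0.15, edgeR adjusted p = 8.82e-05).

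The elongation factors rose together. All 5 tested genes of the eEF1 group were called higher, with log2 fold changes from 1.13 to 2.28. By name the group takes in Eef1e1, which gave the largest value and belongs to another complex, as given below. Eef1a1, which carries aminoacyl-tRNA to the ribosome, had 960.5, 912 and 1089.8 CPM in depleted RPF, against 443, 412 and 416 CPM in steady RPF (log2 fold change 1.22, SE 0.10, edgeR adjusted p = 8.25e-05). Eef1b2, Eef1d and Eef1g, whose proteins recycle eEF1A, rose by 1.59, 1.13 and 1.89 (edgeR adjusted p = 7.29e-05, 0.000887 and 0.000202). Eef1e1, a scaffold protein of the aminoacyl-tRNA synthetase complex, had 73.0, 53.1 and 71.4 CPM in depleted RPF, against 13.9, 14.7 and 12.2 CPM in steady RPF, the largest change of any called factor (log2 fold change 2.28, SE 0.28, edgeR adjusted p = 0.00062). Eef1a2, the form of muscle and neurons, had 0 counts in all 9 libraries. Eef2 (ENSMUSG00000034994, chromosome 10, 81176631 to 81182498), the translocase and the target of diphtheria toxin, had 1440.4, 1329.5 and 1437 CPM in depleted RPF, against 609, 661 and 610.4 CPM in steady RPF (log2 fold change 1.16, SE 0.11, edgeR adjusted p = 0.000161). These are mRNA levels; the modified or active share of the protein was not measured. Eef2k, the kinase that inhibits eEF2, had 14.5, 14.5 and 10.7 CPM in depleted and 21.8, 21.2 and 10.7 CPM in steady RPF and was not called (edgeR adjusted p = 0.409).

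**Figure D4:**
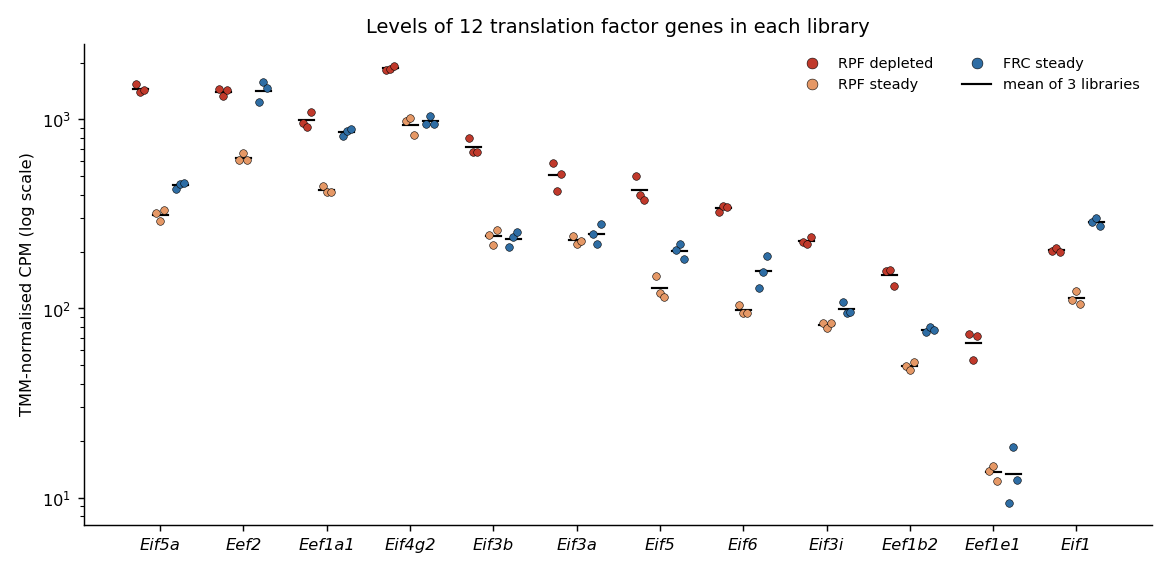
TMM-normalised CPM of 12 factor genes in each library, on a log scale, in the order depleted RPF, steady RPF, FRC, with bars at the mean of 3 libraries. Every depleted library lies above every steady RPF library for all 12, while the FRC libraries lie near steady RPF for Eif4g2, Eif3b and Eef1e1 and near depleted RPF for Eef2.

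Among the genes that restrain or modify these factors, edgeR called 0 of the 3 tested genes of 4E-binding proteins, which hold eIF4E, and 0 of the 5 methyltransferase genes after depletion. At an unadjusted p under 0.05 these counts were 0 of 3 and 2 of 5 (Eef1akmt1 and Eef1akmt3), and DESeq2 and limma-voom called Eef1akmt1 higher. Eif4ebp1 had 33.5, 39.3 and 41.6 CPM in depleted and 26.3, 21.7 and 42.0 CPM in steady RPF (log2 fold change 0.35, SE 0.31, edgeR adjusted p = 0.501). Eif4ebp2 had 19.4, 15.4 and 15.3 CPM against 24.9, 25.7 and 22.2 CPM (log2 fold change -0.54, SE 0.33, edgeR adjusted p = 0.296), with all depleted libraries below the steady ones. Eif4enif1, which carries eIF4E into the nucleus, had a log2 fold change of 0.36 (edgeR adjusted p = 0.41). As a group the 4E-binding proteins took a mean of 0.0102% of counts in depleted RPF and 0.0103% in steady RPF. Among the methyltransferases, Eef1akmt1, Eef1akmt2 and Eef2kmt averaged 15.8 ± 1.38, 19.2 ± 1.60 and 24.4 ± 3.80 CPM in depleted RPF and 6.78 ± 1.78, 20.9 ± 3.78 and 25.9 ± 7.0 CPM in steady RPF (SD, n = 3 each). Eef1akmt4 had 7.01, 6.29 and 13.9 CPM against 1.68, 2.45 and 2.05 CPM, without overlap but not called (edgeR adjusted p = 0.275), and 32.4% of its 50-base words lie in another gene. Eef1akmt3 had 0 counts in each depleted library and 1, 8 and 1 counts in steady RPF, too few to compare. Of the genes that were not tested, Eif4e1b had 3 counts in 1 steady RPF library and Eif4ebp3 3 counts in 1 depleted library, and both had 0 elsewhere.

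Sequence shared with other genes limits what counts can say about some factors. Eif4a1, Eef1g and Eef1a1 had 65.3%, 64.3% and 60.6% of the 50-base words of their coding transcript in another annotated gene, mostly processed copies, and Eif3m, Eif2s3x, Eif1 and Eif2s2 had 40.0%, 36.2%, 31.6% and 27.8%. How reads with several matches were counted is not stated in the labels, so the levels of these genes are uncertain. For Eif5a the share was 7.1%, for Eef2 7.9%, and for Eif3b, Eef1e1 and Eif4g3 it was 0.0%. Strand use in counting is not given either, and exons of Eif3d, Eif5b, Eif1ad, Eif3j1 and Eif4a2 overlap genes on the other strand by 2151, 1643, 428, 1107 and 194 bases. Across the 61 tested factors, the log2 fold change after depletion had a Spearman rho of -0.09 with median transcript length, -0.2 with the length of the coding transcript, 0.15 with the share of shared words and 0.29 with mean CPM, given as a description over genes of the same libraries. With the tested genes split by median transcript length into 4 classes of about equal size, the 9 factors in the longest class had a median log2 fold change of 0.15, against 0.88, 1.09 and 0.95 for the factors in the other classes from short to long. Over all genes the medians were 0.01, -0.06, -0.17 and -0.17 from the shortest class to the longest. The part of length in the result was not tested.

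Other genes of the pathway were read from 9 lists with 107 genes, whose counts stand against 11.1% of all genes called higher after depletion and 9.96% called lower. The alternative fits were not read for the genes of these lists, so whether their calls hold without single libraries was not tested. The genes that make hypusine and diphthamide, the modified residues of eIF5A and eEF2, had 6 of 11 tested members called higher (median log2 fold change 1.01). Odc1, which makes putrescine, had 197, 148 and 156 CPM in depleted RPF, against 50.045, 39.2 and 39.3 CPM in steady RPF, and Srm, spermidine synthase, had 292, 246 and 244 CPM against 53.3, 32.5 and 52.1 CPM (edgeR adjusted p = 0.000484 and 0.000889). Spermidine is the donor for hypusine, and both enzymes that build it, Dhps and Dohh, rose, with log2 fold changes of 0.94 and 1.04 (edgeR adjusted p = 0.0144 and 0.0473). The diphthamide genes Dph5 and Dph1 rose by 1.44 and 1.01 (edgeR adjusted p = 0.00129 and 0.0352). The other diphthamide genes of the list, Dph2, Dph6, Dnajc24, Dph3 and Dph7, were not called. Their log2 fold changes were 1.48, 0.37, 0.28, -0.07 and -0.63. Of 9 termination and recycling genes 3 rose, the release factors Etf1 (log2 fold change 1.77) and Gspt1 (1.38) and the recycling ATPase Abce1 (1.28), at edgeR adjusted p = 0.000133, 0.000652 and 0.000189. Of 12 mitochondrial translation factors 2 were called higher (16.7%), a share near that of all genes and of protein-coding genes with a mean of at least 10 CPM, which was 18.3%.

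Regulators of the cap and the poly(A) tail went in both directions, with 6 of 21 called higher (28.6%) and 2 lower (9.52%), the second share being near that of all genes. The poly(A)-binding protein gene Pabpc1 had 214, 246 and 258 CPM in depleted RPF, against 78.4, 73.7 and 61.1 CPM in steady RPF (log2 fold change 1.75, edgeR adjusted p = 0.000101). Larp1, which binds mRNAs of the translation machinery, rose by 1.35 (edgeR adjusted p = 0.00158). The 2 that fell were Pdcd4 and Paip2. Pdcd4, an inhibitor of eIF4A, had 9.53, 11.6 and 9.42 CPM in depleted RPF, against 32.7, 43.5 and 32.1 CPM in steady RPF (log2 fold change -1.82, SE 0.24, edgeR adjusted p = 0.00079). Paip2, which displaces the poly(A)-binding protein, fell by 0.97 (edgeR adjusted p = 0.00193), while its relative Paip2b was not called (log2 fold change 0.17). The 4 eIF2 kinase genes Eif2ak1 to Eif2ak4 had edgeR adjusted p from 0.34 to 0.922, while Ppp1r15b and Ppp1r15a, which direct the phosphatase to eIF2, rose by 1.60 and 0.93 (edgeR adjusted p = 0.000121 and 0.0173). Atf4, the transcription factor made when eIF2 is phosphorylated, had 437, 448 and 444 CPM in depleted RPF, against 138, 151 and 179 CPM in steady RPF (log2 fold change 1.51, edgeR adjusted p = 6.25e-05). In the list of that response 3 of the 8 tested genes were called higher (37.5%), namely Atf4 itself, Nupr1 and Atf5. Cebpg, Ddit3, Ddit4, Trib3 and Sesn2 were not called, with log2 fold changes of 0.51, 0.39, 0.31, 0.19 and 0.03. Of 17 genes of mTORC1 and its regulators 2 were called higher (11.8%) and 1 lower (5.88%), and of 9 genes of kinases that act on initiation factors or S6, 1 was called higher (11.1%). These shares are near or below those of all genes. In the Myc family 1 of 8 tested genes was called higher (12.5%, near the share of all genes) and 2 lower (25%). The other 5, Mycn, Max, Mnt, Mga and Mxi1, were not called. Myc had 279, 253 and 232 CPM in depleted RPF, against 76.0, 44.2 and 39.1 CPM in steady RPF (log2 fold change 2.26, SE 0.24, edgeR adjusted p = 0.000301), and Mxd4 and Mxd1, whose proteins bind the same E-box and repress, fell by 1.25 and 1.12 (edgeR adjusted p = 0.000619 and 0.0355).

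**Figure D5:**
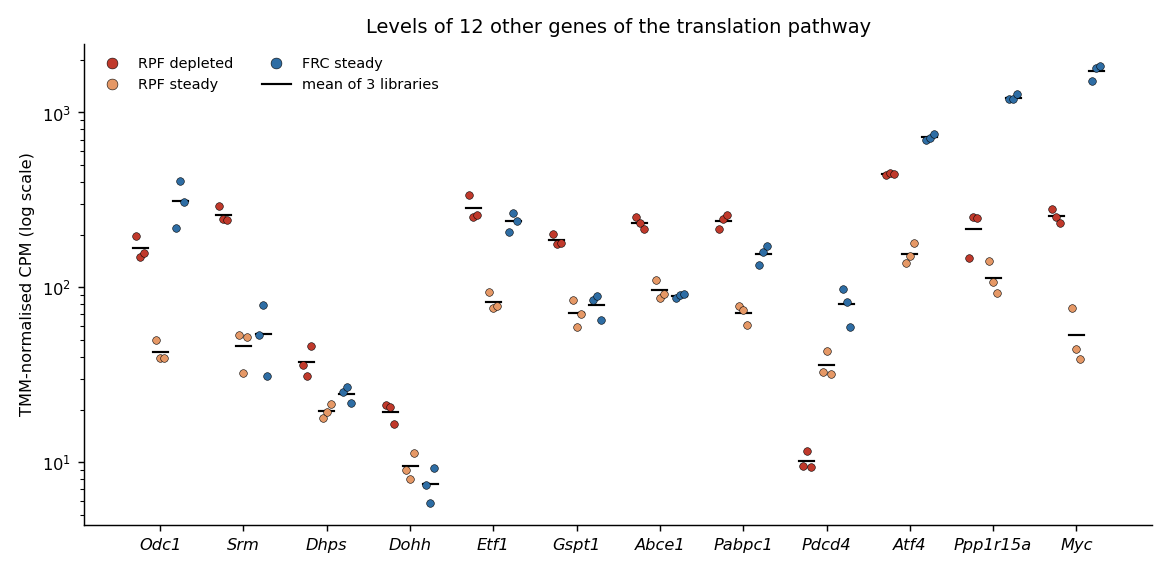
TMM-normalised CPM of 12 other genes of the translation pathway in each library, on a log scale, with bars at the mean of 3 libraries. Depleted libraries lie above steady RPF libraries for every gene but Pdcd4, where they lie below, and FRC libraries stand highest for Myc, Ppp1r15a, Atf4, Odc1 and Pdcd4.

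The comparison of steady RPF with steady FRC asks how the machinery differs between the fibroblasts of spleen and lymph node without treatment. It shares the steady RPF libraries with the comparison above, and since 12 mice were used in all, the steady RPF and FRC libraries come from the same 6 untreated mice. Of the 61 tested factors, 6 were higher and 20 lower in steady RPF than in FRC, against 11.5% and 14.4% of all genes and 14.5% and 20.4% of protein-coding genes with a mean of at least 10 CPM. The split depended on scaling: it was 8 higher and 16 lower with upper quartile scaling, and 16 higher and 5 lower with library totals alone, where the median log2 fold change of all genes moved to 0.55 against -0.02. The groups differ in makeup, with mitochondrial genes at 0.519 to 0.720% of counts in steady RPF and 1.98 to 2.24% in FRC, and the 20 most abundant genes at 13.8 to 14.9% in steady RPF and 22.9 to 24.7% in FRC. As shares of all counts the factors took 0.699% in steady RPF and 0.652% in FRC on average.

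Under each of these scalings 5 factors stayed lower in steady RPF: Eef2k, Eif4a1, Eif1, Eef2 and Eef1a1. Eef2k had 21.8, 21.2 and 10.7 CPM in steady RPF, against 88.0, 88.4 and 51.1 CPM in FRC, the largest fall of a called factor (log2 fold change -2.08, SE 0.34, edgeR adjusted p = 0.00195). Eif4a1 had 15.0, 11.6 and 12.8 CPM in steady RPF, against 30.9, 56.1 and 39.0 CPM in FRC (log2 fold change -1.68, SE 0.25, edgeR adjusted p = 0.00115). No library of steady RPF reached any FRC library for these genes; replicate 3 was the lowest of both groups for Eef2k. Eif1 had 111, 124 and 106 CPM in steady RPF, against 285, 301 and 275 CPM in FRC (log2 fold change -1.34, edgeR adjusted p = 2.31e-05). Eef2 had 609, 661 and 610.4 CPM in steady RPF, against 1233, 1571 and 1459 CPM in FRC (log2 fold change -1.18, edgeR adjusted p = 6.68e-05). Eef1a1 had 443, 412 and 416 CPM in steady RPF, against 814, 864 and 887 CPM in FRC (log2 fold change -1.01, edgeR adjusted p = 9.3e-05). Eef2 in depleted RPF, listed above, lay within the range of the FRC libraries, a difference that was not tested.

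The other 15 lower calls were Eif4b, Eif3e, Eif3h, Eif3f, Eif1a, Eif6, Eif5, Eif3g, Eif3l, Eif4e2, Eif5a, Eif3k, Eef1g, Eef1d and Eef1b2, with log2 fold changes from -0.42 to -0.91. With library totals alone all 15 lost their call, and Eif5a, Eif3k, Eif3l and Eif4e2 turned to 0.06, 0.15, 0.05 and 0.05. Eif5a had 318, 291 and 331 CPM in steady RPF, against 431, 456 and 459 CPM in FRC (log2 fold change -0.52, SE 0.09, edgeR adjusted p = 0.00337). Some of these calls were lost when a single library was left out. Calls over all genes fell too, for instance from 1734 higher and 2174 lower to 1218 and 1620 without steady RPF replicate 3. Eif3k lost its call without any 1 of the 9 libraries and Eif4e2 without any 1 but FRC replicate 3, at edgeR adjusted p of up to 0.124 and 0.127. In these fits the log2 fold change of Eif3k stayed between -0.48 and -0.37. Eif3l lost it without steady RPF replicate 1 or 3 or FRC replicate 2 or 3, and Eif3g without steady RPF replicate 2 or 3 or FRC replicate 2 (edgeR adjusted p up to 0.108 and 0.0878). Eif3f lost it without steady RPF replicate 1 or 3, and Eif5 without steady RPF replicate 2 or 3 (edgeR adjusted p up to 0.0548 and 0.055).

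The 6 factors higher in steady RPF were Eif1ad, Eif4ebp1, Eif2b5, Eif2b1, Eif4g3 and Eif3m, and their direction was the same under every scaling. Eif4g3 had 149, 177 and 149 CPM in steady RPF, against 93.8, 121 and 103 CPM in FRC (log2 fold change 0.58, SE 0.14, edgeR adjusted p = 0.0156). Eif4ebp1 had 26.3, 21.7 and 42.0 CPM in steady RPF, against 10.4, 15.3 and 19.2 CPM in FRC (log2 fold change 1.00, SE 0.31, edgeR adjusted p = 0.0444). The remaining log2 fold changes were 1.22 for Eif1ad, 0.81 for Eif2b5, 0.76 for Eif2b1 and 0.53 for Eif3m (edgeR adjusted p = 0.0466, 0.0388, 0.0466 and 0.0202). All 6 calls were lost without FRC replicate 1, at edgeR adjusted p from 0.0509 to 0.118. Eif1ad also lost its call without any 1 other library but FRC replicate 2, and Eif2b1 without any 1 other but FRC replicate 3. Eif2b5 and Eif4ebp1 lost theirs without any 1 depleted library or steady RPF replicate 1 or 3, and further without FRC replicate 3 for Eif2b5 and FRC replicate 2 for Eif4ebp1. Eif3m lost its call without steady RPF replicate 1 or 2 or FRC replicate 3, and Eif4g3 without steady RPF replicate 2.

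Among the other pathway genes, steady RPF differed most from FRC in Myc, which had 76.0, 44.2 and 39.1 CPM in steady RPF, against 1513, 1808 and 1848 CPM in FRC (log2 fold change -5.02, SE 0.27, edgeR adjusted p = 3.62e-06). Ppp1r15a, Odc1, Ppp1r15b, Atf4 and Mknk2, a kinase of eIF4E, were lower in steady RPF by log2 fold changes of -3.42, -2.86, -2.45, -2.21 and -1.96 (edgeR adjusted p from 3.04e-06 to 3.72e-05). For Myc, the depleted libraries stood between steady RPF and FRC. Lamtor1, an anchor of mTORC1 on lysosomes, was higher in steady RPF, at 44.3, 51.1 and 45.7 CPM against 14.6, 20.6 and 18.5 CPM in FRC (log2 fold change 1.39, edgeR adjusted p = 0.000547).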

How the data were processed

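Poly(A) RNA was sequenced from 9 libraries of sorted mouse fibroblasts. The authors deposited raw read counts per Ensembl gene, and per the submitters' processing notes HTSeq 0.6.1p1, STAR 2.5.3a, Bowtie2 2.2.8 and cutadapt 1.10 were the tools and mm10 the build. Not given in the sources used here are the annotation release, the strand setting and how reads with several matches were treated. A further 24 per-sample columns, normalised values among them, were not used. The deposited median transcript length, in bases, served only for the check of length.

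The 64 factors and all gene lists were chosen with earlier results of these data known. Counts of all 27370 genes were filtered with filterByExpr by group, leaving 15103 genes, and fitted by the robust quasi-likelihood method of edgeR 4.0.16 (R 4.3.3) after TMM scaling. The 9 libraries shared 1 fit with a mean per group, which left 6 residual degrees of freedom. P-values were two-sided and Benjamini-Hochberg adjusted over all genes tested, and a gene was called at an adjusted p under 0.05. Levels are TMM-normalised CPM, given per library or as mean ± SD, and the SE of a log2 fold change was taken from its F statistic. P-values measure the spread between pools of 2 mice. Steady RPF and FRC share mice, and the test treats their libraries as independent. A count of 0 allows up to 3 counts, or 0.0684 to 0.118 CPM by library total; this covers counting error only. Shared sequence was measured as 50-base words of the longest coding transcript found in other genes of GENCODE M21, and promoters came from RefSeq. Named with values were all called factors, the 2 most abundant of each role, the related pairs and the factors not tested, and of each pathway list mainly the called genes with the smallest p.

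Tried as alternatives were DESeq2 1.42.0, scaling by RLE or upper quartile, leaving out the filter, a minimum of 1 CPM, limma-voom (limma 3.58.1), a test against a 1.5-fold change, a fit of the compared groups alone, leaving out each library, and leaving out both libraries with few Y-linked reads. Fits on library totals without scaling factors and with a term for both libraries with few Y-linked reads were chosen after seeing the data. Matplotlib 3.10.9 (Python 3.11.15) drew the figures.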

Additional observations from a re-analysis of the deposited data

How the results depend on the processing

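After depletion the count of factors called higher, 35, stayed between 25 and 39 under all 20 alternatives, and 25 of the 38 calls in either direction held under every one; 4 more were lost only against a 1.5-fold change. The count called lower, 3, was 0 against a 1.5-fold change, 1 without both libraries with few Y-linked reads or with a term for them, and 1 to 2 without any single library. Between steady RPF and FRC, the count called higher, 6, was 0 against a 1.5-fold change, 2 with only these groups in the fit, 0 to 5 without any single library and 0 without both libraries with few Y-linked reads. With library totals alone it was 16. The count called lower, 20, was 6 against a 1.5-fold change and 5 with library totals alone, where Eif3k, Eif3l, Eif4e2 and Eif5a reversed to log2 fold changes of 0.15, 0.05, 0.05 and 0.06; it stayed between 14 and 18 without any single library. Of the 26 calls between steady RPF and FRC, 5 held under every alternative. Library totals shift the median of all genes by construction; the cause of the other changes was not tested. No paired analysis was possible because the labels do not say which steady RPF and FRC libraries share mice. With a term for both libraries with few Y-linked reads, chosen after seeing the data, the counts between steady RPF and FRC were 5 higher and 18 lower. Factors under about 10 CPM (6 of 61 tested) gave 1 call, and their low counts limit what can be said of them.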
